A study of Homo sapiens with 9 samples.

Results

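The miRNAs of the miR-99/100 and miR-125 clusters come from 3 related genomic clusters, each of which holds 1 hairpin of the miR-99/100 family, 1 hairpin of the let-7 family and 1 hairpin of the miR-125 family. They are known as paralogous clusters, with 1 copy on chromosome 11, 1 on chromosome 21 and 1 on chromosome 19. Members were chosen by name from a list of mature miRNAs, and 9 of the 1198 mature miRNAs in the count table matched it. Small RNA was sequenced from HCT116, a human colorectal carcinoma line in long use, and from 2 drug-resistant sublines derived from it. HCT-Oxa-c came from cells kept in oxaliplatin without a break while the dose was raised, and HCT-FU-c likewise in 5-fluorouracil. The untreated parental HCT116 line served as the control. Each line gave 3 biological replicates, so 9 libraries were compared. The libraries cover 1 resistant subline for each drug, and its replicates show how its cultures vary, not how independent selections do.

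A miRNA hairpin is cut into a pair of mature strands, 1 from its 5′ arm and 1 from its 3′ arm, and usually 1 of them is loaded into Argonaute and guides it to messenger RNAs. Recognition rests mainly on the seed near the 5′ end of the mature strand, so that miRNAs with the same seed can share targets. miR-100 and miR-99 are known to repress MTOR, and miR-125 is the mammalian relative of the worm lin-4, which represses lin-28. The chromosome 11 hairpins lie in the long noncoding RNA gene MIR100HG, and MIR100HG, miR-100 and miR-125b have been linked to resistance of colorectal cancer cells to the antibody cetuximab.

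The 5 members from 5′ arms are shown here because they hold nearly all reads of the members and fall into 2 seed families. The seed, bases 2 to 8, is in capitals. All 9 members matched a mature sequence in the RefSeq table (GRCh38.p14), and these 5 read as follows, 5′ to 3′.
hsa-miR-100-5p: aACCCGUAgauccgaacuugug
hsa-miR-99a-5p: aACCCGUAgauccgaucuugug
hsa-miR-99b-5p: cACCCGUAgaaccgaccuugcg
hsa-miR-125b-5p: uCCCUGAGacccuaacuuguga
hsa-miR-125a-5p: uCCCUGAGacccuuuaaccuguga
The first 3 share the seed ACCCGUA and the last 2 share CCCUGAG. With positions counted from 1 at the 5′ end of miR-100-5p, miR-99a-5p differs from it by the single substitution A16U, and miR-99b-5p by A1C, U11A, A16C and U21C, none of which touches the seed. miR-125b-5p and miR-125a-5p have the same first 13 bases and lengths of 22 and 24 bases. The other 4 members are the 3′ arm strands hsa-miR-125b-1-3p, hsa-miR-99b-3p, hsa-miR-125a-3p and hsa-let-7a-2-3p, each with a seed found in no other member.

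On chromosome 11 the hairpins are transcribed from the minus strand in the order MIR100, MIRLET7A2 and MIR125B1, within chr11:122099757-122152308 (GRCh38, GENCODE 29). MIRLET7A2 begins 5715 bases and MIR125B1 52464 bases after the start of MIR100, and all 3 lie in introns of MIR100HG, in each of the annotated transcripts that span them. On chromosome 21 the order is MIR99A, MIRLET7C and MIR125B2 on the plus strand, within chr21:16539089-16590325, and all 3 lie in introns of the noncoding MIR99AHG. On chromosome 19 the hairpins MIR99B, MIRLET7E and MIR125A lie within chr19:51692612-51693339, a stretch of 728 bases on the plus strand, in an intron of SPACA6 and over an exon of SPACA6P-AS on the opposite strand. The mature miR-125b-5p is the same sequence from 2 hairpins, MIR125B1 and MIR125B2, so its reads cannot be assigned to chromosome 11 or 21. miR-125b-1-3p is made from MIR125B1 alone.

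The deposited values were raw counts of reads per mature miRNA. For replicates 1, 2 and 3 they totalled 1423526, 1414341 and 856383 (HCT116), 1230774, 1487737 and 919675 (HCT-FU-c), and 1950307, 2207538 and 1088268 (HCT-Oxa-c). Levels are given as CPM, counts scaled to library size with TMM factors, and a count of 3, the limit that a count of 0 allows, corresponded to between 1.34 and 4.01 CPM. The counts are of PCR reads, so limits and intervals cover counting error only. The 9 members took between 4.02% (95% Wilson interval 3.99 to 4.05, HCT-FU-c replicate 2) and 8.30% (8.25 to 8.35, HCT-Oxa-c replicate 3) of the counts of a library. Among them miR-100-5p was by far the most abundant, with 68.7% to 93.1% of the members' counts in a library, and by its mean level it ranked number 2 of the 367 miRNAs that passed the filter on low counts. All 9 members passed that filter.

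miR-100-5p was measured at 41184, 38810 and 53625 CPM (HCT116, replicates 1, 2 and 3), at 38243, 21579 and 47303 CPM (HCT-FU-c) and at 59494, 59622 and 86310 CPM (HCT-Oxa-c). Every HCT-Oxa-c library was above every library of the other lines, while HCT116 and HCT-FU-c overlapped. miR-125b-5p, whose reads combine chromosomes 11 and 21, was measured at 4500, 6605 and 2354 CPM (HCT116), at 6068, 5405 and 2450 CPM (HCT-FU-c) and at 3810, 4250 and 1942 CPM (HCT-Oxa-c). The lines overlapped for miR-125b-5p, and in each of them replicate 3 was the lowest library. The abundant chromosome 19 members, miR-99b-5p and miR-125a-5p, overlapped between the 3 lines. In HCT116, HCT-FU-c and HCT-Oxa-c the means were 2711 ± 539, 2559 ± 535 and 2377 ± 241 CPM for miR-99b-5p. They were 1426 ± 526, 1920 ± 458 and 1829 ± 267 CPM for miR-125a-5p (SD, n = 3 each). For neither did any of the 3 lines stand apart from another beyond the spread of its replicates.

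The remaining 5 members were far lower. The 3′ strand miR-99b-3p was found at 85.8 to 163 CPM and miR-125b-1-3p, the partner strand of miR-125b-5p in MIR125B1, at 66.5 to 117 CPM. miR-99a-5p, the chromosome 21 copy of the family, was found at 4.29 to 17.4 CPM, from 5 to 23 counts per library, and miR-125a-3p at 4.92 to 14.4 CPM, from 4 to 25 counts. let-7a-2-3p ranged from 2 to 30 counts and reached no more than 3 counts in replicate 3 of HCT-FU-c and of HCT-Oxa-c, where it was not distinguishable from 0. The mean over the 9 libraries ranged from 49575 CPM for miR-100-5p to 8.20 CPM for let-7a-2-3p. In between, miR-125b-5p, miR-99b-5p and miR-125a-5p overlapped over the libraries, as did miR-99b-3p with miR-125b-1-3p, and the 3 lowest members with each other. miR-99a-5p stood at 0.00773% to 0.0465% of the miR-100-5p count of the same library. With a single substitution between them, and with no rule on mismatches found in the sources used here, these few reads are reported as uncertain.

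**Figure D1:**
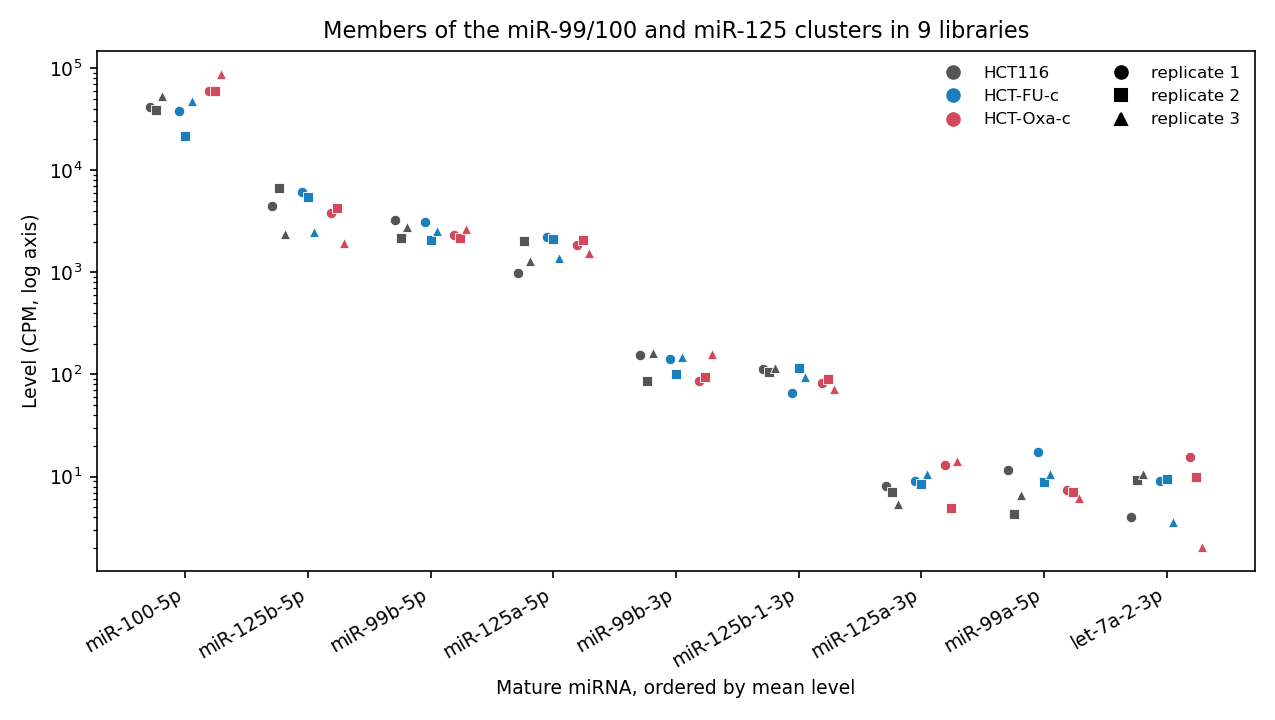
Level of each of the 9 members in each of the 9 libraries in CPM on a log axis, with the cell line given by colour and the replicate by symbol. The HCT-Oxa-c libraries lie at 59494 CPM and above for miR-100-5p and all others at 53625 CPM and below, and for miR-125b-5p the replicate 3 libraries lie at 2450 CPM and below.

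Replicate 3 stood apart in every line before any line was compared with another. For miR-125b-5p all 3 replicate 3 libraries were below the other 6, with a mean of 2249 CPM against 5107 CPM, and it was the only member for which this held. Of all 367 tested miRNAs, 65 showed that order, or 17.7%, so the pattern was shared by many miRNAs. miR-100-5p was highest in replicate 3 of each line, with a mean of 62413 CPM against 43155 CPM in the other 6. In the same libraries some, but not all, of the fixed markers of other cell types were higher. The 7 blood cell miRNAs summed to 397, 290 and 583 CPM in replicate 3 of HCT116, HCT-FU-c and HCT-Oxa-c, and to between 10.5 and 42.3 CPM in the other 6 libraries. Most of this was miR-486-5p, which reached 310 CPM, and the red cell miRNA miR-451a, which reached 253 CPM. Of the others on that list, miR-142-5p was highest in HCT116 replicate 2 and miR-142-3p in HCT-FU-c replicate 1, and 6 of the 7 had 3 counts or fewer in some library. The fibroblast and smooth muscle list was likewise highest in replicate 3 of each line (675, 458 and 399 CPM), through miR-143-3p alone (561, 393 and 312 CPM), while miR-145-5p was lowest there (114, 64.4 and 86.2 CPM). The liver miRNA miR-122-5p was found at 23.8 to 60.1 CPM in replicate 3 and at no more than 3.67 CPM elsewhere. The muscle and neuron lists did not follow this order, with a muscle sum of 0 CPM in HCT-FU-c replicate 3 and a neuron sum of 3027 CPM in HCT-Oxa-c replicate 3 against 3080 CPM in its replicate 1. The part of these differences in the levels of the members was not tested. Each line has 1 replicate 3 library, so every comparison of lines sets replicates 1, 2 and 3 against replicates 1, 2 and 3. Pairs of the same replicate number are given below as a description only, since numbers 1 and 2 were not shown to be paired. A sign test on 3 pairs, which was not run, could give no p below 0.25. The share of all tested miRNAs with the same direction in 3 of 3 pairs was not counted.

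The first comparison asks how the oxaliplatin-resistant subline differs from its parent. miR-100-5p was 1.54-fold higher in HCT-Oxa-c than in HCT116 (68475 ± 15446 against 44540 ± 7957 CPM, SD, n = 3 each), and it was higher in 3 of 3 pairs of the same replicate number, by 1.44-, 1.54- and 1.61-fold. Its log2 fold change of 0.62 (standard error, SE, 0.31) did not pass the quasi-likelihood test of edgeR after Benjamini-Hochberg adjustment (adjusted p = 0.521), but did so with the replicate number as a block (log2 fold change 0.61, SE 0.17, adjusted p = 0.0187 in edgeR). The same contrast gave a log2 fold change of -0.43 (SE 0.47) for miR-125b-5p, which was lower in 3 of 3 pairs but ranged from -0.74 to -0.0091 with 1 library left out, and of -0.43 (SE 0.26) for miR-125b-1-3p, whose HCT-Oxa-c libraries all lay below those of HCT116. Neither passed, with edgeR adjusted p-values of 0.939 and 0.684. The abundant strand of MIR100 and the miR-125b-1-3p strand of MIR125B1, from the same host gene, had fold changes of opposite sign. Neither passed in the model of the lines alone, and miR-125b-1-3p did not pass with the block (edgeR, adjusted p = 0.220). The third chromosome 11 member, let-7a-2-3p, had a log2 fold change of 0.28 (SE 0.71). A higher level per cell and a larger share of cells with a high level cannot be told apart in bulk libraries.

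Of the 9 members, none was differentially expressed between HCT-Oxa-c and HCT116 at an adjusted p below 0.05 in edgeR, against 9 of the 367 tested miRNAs (2.45%). At an unadjusted p below 0.05 the counts in this model, without the block, were 0 members and 38 of the 367 (10.4%). DESeq2 was fitted to all miRNAs with any count, not only to the 367. It called 0 members, with 0 at an unadjusted p below 0.05, and 15 miRNAs in all. How many of all miRNAs had an unadjusted p below 0.05 in DESeq2 was not counted. With the replicate block 1 member was called, miR-100-5p, against 54 of the 367 (14.7%). This call was lost in 4 of the 9 blocked fits that each left out 1 library, namely any of the 3 HCT116 libraries or HCT-Oxa-c replicate 2, with an edgeR adjusted p of at most 0.206. The groups did not overlap for 2 members, 1 higher and 1 lower, against 59 of the 367 (16.1%). The members' log2 fold changes had a median of -0.13 (4 above 0 and 5 below), and those of all tested miRNAs had a median of -0.012. These counts were near the background, and a shift of the members as a set was not tested.

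The second comparison sets the 5-fluorouracil-resistant subline against the parent. No member passed the test, and the log2 fold changes of the abundant members ran from -0.32 to 0.43. miR-100-5p was measured at 35708 ± 13048 CPM in HCT-FU-c (SD, n = 3), with a log2 fold change of -0.32 (SE 0.30; edgeR, adjusted p = 0.997). It was lower in 3 of 3 pairs, and most so in replicate 2, where HCT-FU-c had 0.556 times the level of HCT116. With 1 library left out the log2 fold change ranged from -0.57 to -0.058, the latter without HCT-FU-c replicate 2. miR-125b-5p had a log2 fold change of 0.049 (SE 0.47), and it was -0.021 with RLE size factors in place of TMM. miR-125a-5p was higher in 3 of 3 pairs, by a log2 fold change of 0.43 (SE 0.31; edgeR, adjusted p = 0.968), as it was in HCT-Oxa-c with 0.36 (SE 0.31; edgeR, adjusted p = 0.875). Both comparisons share the HCT116 libraries, and in replicate 1 of HCT116 the level of miR-125a-5p was the lowest of all 9 libraries at 973 CPM. The chromosome 21 member miR-99a-5p had a log2 fold change of 0.70 (SE 0.51; edgeR, adjusted p = 0.968) at 4.29 to 17.4 CPM.

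None of the 9 members was called between HCT-FU-c and HCT116 by edgeR, where 0 of the 367 tested miRNAs (0%) was called. At an unadjusted p below 0.05 the counts in this model, without the block, were 0 members and 15 of the 367 (4.09%). DESeq2, fitted to the wider set of miRNAs with any count, called 0 members and 1 miRNA in all. At an unadjusted p below 0.05 it gave 0 members, and the count over all miRNAs was not made. With the replicate block the count of members was again 0, against 20 of the 367 (5.45%). The groups did not overlap for 1 member, miR-125a-3p at 8.41 to 10.7 against 5.35 to 8.15 CPM, against 32 of the 367 (8.72%). The median log2 fold change was -0.044 over the members and 0.024 over all tested miRNAs.

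The largest difference of an abundant member was found between the sublines. The level of miR-100-5p in HCT-Oxa-c was 1.92 times that of HCT-FU-c, with a log2 fold change of 0.94 (SE 0.31), and it was higher in 3 of 3 pairs, by 1.56-, 2.76- and 1.82-fold. In the model of the lines alone its unadjusted p was 0.0132 and its adjusted p was 0.139 (quasi-likelihood test of edgeR, Benjamini-Hochberg adjustment). With the replicate block it was called, with a log2 fold change of 0.98 (SE 0.17; edgeR, adjusted p = 0.000185), and it was called in all 9 blocked fits that each left out 1 library (adjusted p in edgeR from 3.77e-06 to 0.00663). miR-125b-5p was lower in HCT-Oxa-c in 3 of 3 pairs, with a log2 fold change of -0.48 (SE 0.47; edgeR, adjusted p = 0.698). With the block this was -0.46 (SE 0.15; edgeR, adjusted p = 0.0304). The latter call was lost in 5 of the 9 blocked fits that left out a library, those without HCT116 replicate 2, HCT-FU-c replicate 1 or 3, or HCT-Oxa-c replicate 1 or 2, where the edgeR adjusted p reached 0.269. The low-count member miR-99a-5p was measured at 6.89 ± 0.636 CPM in HCT-Oxa-c and at 12.4 ± 4.45 CPM in HCT-FU-c (SD, n = 3 each), with no overlap and a log2 fold change of -0.82 (SE 0.50; edgeR, adjusted p = 0.512).

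Of the 9 members, 0 were called between the sublines in the model of the lines alone, against 16 of the 367 tested miRNAs (4.36%). In edgeR 1 member had an unadjusted p below 0.05, against 62 of the 367 (16.9%). DESeq2, fitted to the wider set of miRNAs with any count, called 0 members and 22 miRNAs in all. At an unadjusted p below 0.05 it gave 1 member, and the count over all miRNAs was not made. With the replicate block 2 members were called, miR-100-5p higher and miR-125b-5p lower in HCT-Oxa-c, against 97 of the 367 (26.4%). The groups did not overlap for 2 members, 1 in each direction, against 84 of the 367 (22.9%). Both counts were at the background. The members had a median log2 fold change of -0.11, and all tested miRNAs one of -0.072.

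**Figure D2:**
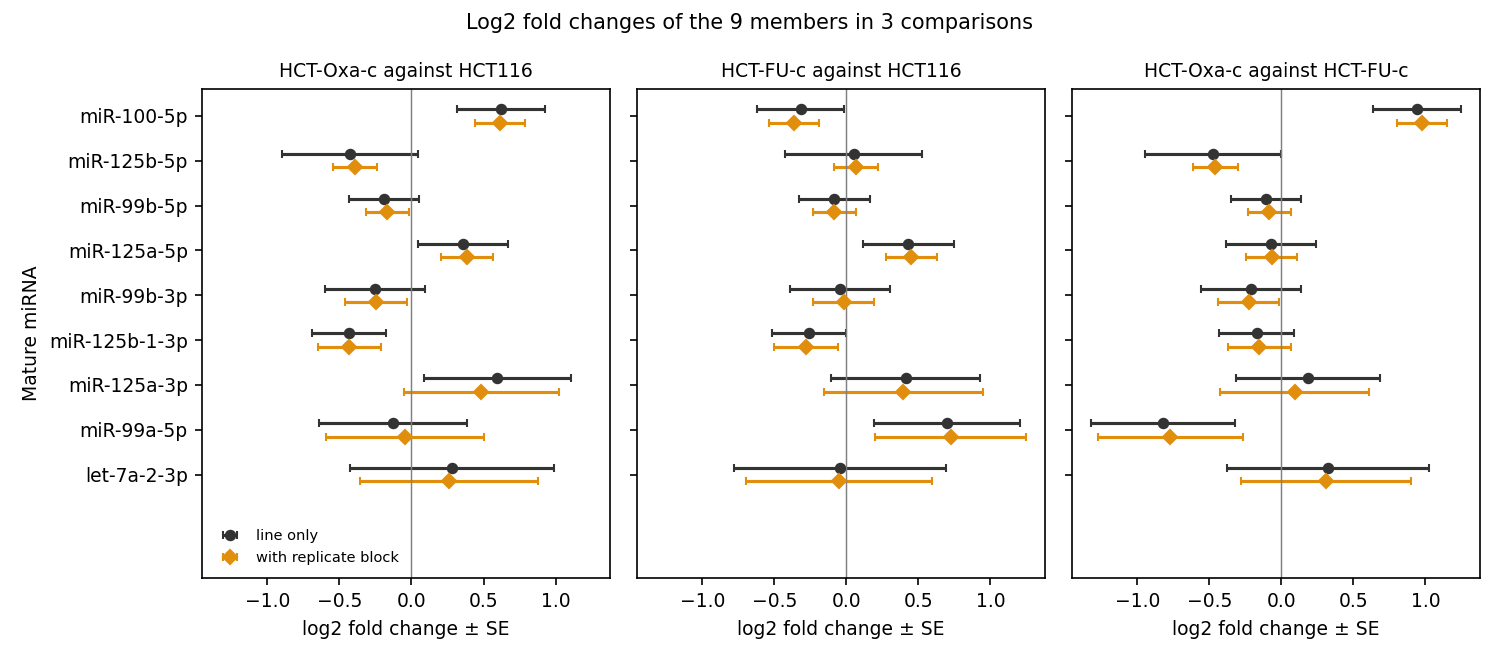
Log2 fold change of each member in the 3 comparisons, with bars of 1 standard error, from edgeR's model of the lines alone (dark circles) and with the replicate number as a block (orange diamonds). For miR-100-5p the values with the block are 0.61, -0.36 and 0.98, and for miR-125b-5p they are -0.39, 0.066 and -0.46.

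Ratios of 2 members within a library need no scaling between libraries, and 8 of them were compared in the 3 contrasts. The count of miR-125b-5p was 10.9%, 17.0% and 4.39% of that of miR-100-5p (HCT116, replicates 1, 2 and 3), 15.9%, 25.0% and 5.18% (HCT-FU-c), and 6.40%, 7.13% and 2.25% (HCT-Oxa-c). In each replicate number HCT-FU-c had the highest and HCT-Oxa-c the lowest ratio, although the lines overlapped, with replicate 3 low in all of them. The log2 ratio was lower in HCT-Oxa-c by a mean difference of -0.997 against HCT116 (pairs from -1.26 to -0.77) and of -1.44 against HCT-FU-c (pairs from -1.81 to -1.20). An exact permutation test, two-sided, gave p = 0.3 for both, and adjusted over the 24 ratio tests p = 0.655. Because 3 libraries against 3 cannot give a p below 0.1 in this test, no ratio could pass. Its p-values therefore do not decide whether a ratio differs between lines. The permutation also ignored the replicate number, although replicate 3 was low in every line. The pair differences had SDs of 0.24 and 0.33. The ratios were not tested with the replicate number as a block.

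The ratio of the seed partners miR-99b-5p and miR-100-5p behaved likewise, and it shares the denominator miR-100-5p with the ratio above. It was 7.82%, 5.53% and 5.16% (HCT116), 8.14%, 9.48% and 5.32% (HCT-FU-c), and 3.86%, 3.67% and 3.07% (HCT-Oxa-c). Here the HCT-Oxa-c libraries lay below all others, with a mean log2 difference of -0.79 against HCT116 and of -1.08 against HCT-FU-c, and both reached the smallest p of the exact permutation test (p = 0.1, adjusted p = 0.655). The ratio of miR-99a-5p to miR-100-5p gave a mean log2 difference of -1.76 between HCT-Oxa-c and HCT-FU-c without overlap (exact permutation p = 0.1, adjusted p = 0.655), on no more than 23 counts of miR-99a-5p. These were the only 3 of the 24 tests at the smallest p. All 3 have miR-100-5p as denominator, so they are not separate results from its level. The log2 fold change of miR-99b-5p itself in HCT-Oxa-c against HCT116 was -0.19 (SE 0.25). Within the chromosome 19 cluster miR-125a-5p stood at 30.2%, 93.3% and 47.1% of miR-99b-5p in HCT116, a wide range within 1 line, and in HCT-FU-c and HCT-Oxa-c at 55.4% to 104% and 58.8% to 95.6%. Against HCT116 this log2 ratio was higher in 3 of 3 pairs in HCT-Oxa-c (mean 0.59, pairs from 0.035 to 1.40, exact permutation p = 0.3, adjusted p = 0.655) and in HCT-FU-c (mean 0.55, pairs from 0.16 to 1.24, exact permutation p = 0.4, adjusted p = 0.738). Between the clusters, the log2 ratio of miR-125a-5p to miR-125b-5p was higher in HCT-Oxa-c in 3 of 3 pairs, by a mean of 0.80 against HCT116 (pairs from 0.53 to 1.16) and of 0.40 against HCT-FU-c (pairs from 0.32 to 0.49). The lines overlapped for it (exact permutation p = 0.3 for both, adjusted p = 0.655), and it was also higher in HCT-FU-c than in HCT116 in 3 of 3 pairs, by a mean of 0.40 (pairs from 0.040 to 0.76, exact permutation p = 0.4, adjusted p = 0.738). For the arms of a hairpin, the log2 ratio of miR-99b-5p to miR-99b-3p was 4.36, 4.29 and 4.44 in HCT116, HCT-FU-c and HCT-Oxa-c, and that of miR-125a-5p to miR-125a-3p was 7.55, 7.59 and 7.49. The lines overlapped in both, with SDs of 0.19 to 0.33 and of 0.56 to 1.04 on the log2 scale (exact permutation p from 0.5 to 0.9, adjusted p from 0.857 to 0.939). This does not show that the arm ratios are equal, and that of miR-125a rests on 4 to 25 counts of its 3′ strand. The ratio of miR-125b-5p to miR-125b-1-3p is not that of 1 hairpin, since MIR125B2 adds to miR-125b-5p, and its lines overlapped too (exact permutation p from 0.7 to 1, adjusted p from 0.939 to 1).

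**Figure D3:**
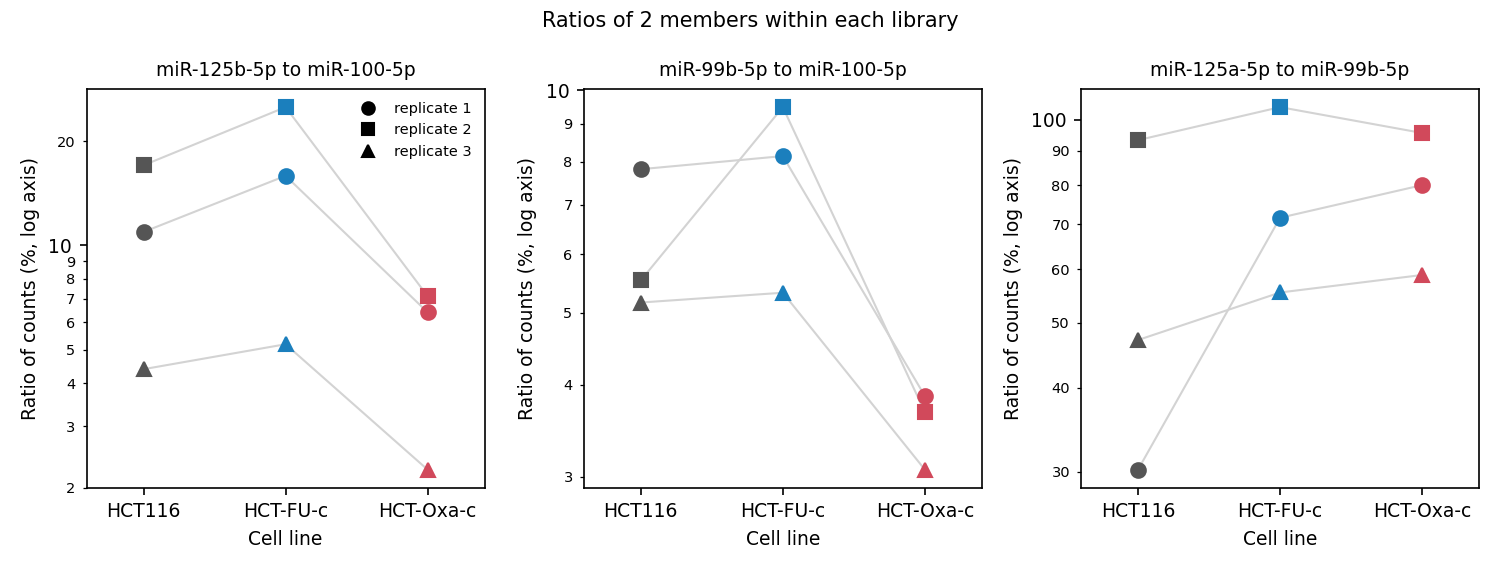
Ratio of the counts of 2 members in each library in percent on a log axis, by cell line, with lines joining libraries of the same replicate number. The ratio of miR-99b-5p to miR-100-5p is at most 3.86% in HCT-Oxa-c and at least 5.16% elsewhere, and the ratio of miR-125b-5p to miR-100-5p is lowest in HCT-Oxa-c within each replicate number.

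Summed by locus, the chromosome 11 members (miR-100-5p, miR-125b-1-3p and let-7a-2-3p) reached 44659 ± 7963, 35808 ± 13030 and 68567 ± 15431 CPM in HCT116, HCT-FU-c and HCT-Oxa-c (SD, n = 3 each), nearly all of it miR-100-5p. The 4 chromosome 19 members summed to 4279 ± 66.4, 4619 ± 765 and 4329 ± 84.8 CPM. Between HCT-Oxa-c and HCT116 the chromosome 11 total differed by 0.61 on the log2 scale without overlap and the chromosome 19 total by 0.017, and the exact permutation p-values were 0.1, the smallest possible, and 0.4 (adjusted over 12 tests 0.4 and 0.75). Between the sublines the chromosome 11 total differed by 0.99 (exact permutation p = 0.1, adjusted p = 0.4). The chromosome 21 total, which is miR-99a-5p alone, differed by -0.79 without overlap (exact permutation p = 0.1, adjusted p = 0.4).

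Of the 8 other mature miRNAs made from these clusters, 5 were tested and the other 3 were not analysed here. None of the 5 was called by edgeR in the model of the lines alone in any comparison, and none had an unadjusted p below 0.05. The background counts are given for HCT-Oxa-c and HCT-FU-c against the parent, then between the sublines. Of the 367 tested miRNAs, edgeR called 9, 0 and 16 (2.45%, 0% and 4.36%). At an unadjusted p below 0.05 there were 38, 15 and 62 of the 367 (10.4%, 4.09% and 16.9%). DESeq2 also called 0 of the 5 in each comparison, with 0 at an unadjusted p below 0.05. In all it called 15, 1 and 22 of the wider set of miRNAs with any count. Its count over all miRNAs at an unadjusted p below 0.05 was not made. With only 5 miRNAs, a count of 0 was near the background. The opposite strand of MIR100, miR-100-3p, was found at 117 ± 49.3, 70.2 ± 17.7 and 137 ± 81.1 CPM in HCT116, HCT-FU-c and HCT-Oxa-c (SD, n = 3 each). Between the sublines the log2 fold change was 0.96 (SE 0.53; edgeR, adjusted p = 0.471), and with the replicate block 0.86 (SE 0.26; edgeR, adjusted p = 0.0163), where 97 of the 367 tested miRNAs (26.4%) were called. It was higher in 2 of 3 pairs, and whether this call holds with a library left out was not examined. miR-100-3p was lowest in replicate 3 of every line (69.5, 52.4 and 44.1 CPM), where miR-100-5p was highest, so the strands of MIR100 ran opposite ways across the replicates. let-7a-5p, which is also made from hairpins outside these clusters, was measured at 24872 ± 13919, 26317 ± 8491 and 31791 ± 5349 CPM. let-7e-5p of chromosome 19 and let-7c-5p of chromosome 21 each differ from let-7a-5p by 1 substitution, U9G and A19G, and their counts of 663 and 28.1 CPM on average in HCT116 are uncertain for the same reason as those of miR-99a-5p.

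Outside the members, the miRNAs most like each leading member were sought by the Pearson correlation of log2 CPM over the 9 libraries, as a description of libraries that share lines and replicate numbers. For miR-100-5p they were miR-181a-3p, miR-181b-5p and miR-203a-3p, with r between 0.956 and 0.957. For miR-125b-5p they were miR-330-5p, miR-186-5p and miR-18a-3p (r from 0.942 to 0.964). For the chromosome 19 leader miR-99b-5p they were miR-340-5p at 0.757, miR-128-1-5p and miR-455-5p, all below its own partner strand miR-99b-3p at 0.816. Of these, miR-128-1-5p and miR-455-5p averaged only 12.5 and 10.6 CPM, so their correlations rest on few counts. For miR-99a-5p the most similar were miR-301a-5p at 0.808, miR-532-5p and miR-335-3p. No miRNA was among the 3 of more than 1 of these members.

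The labelled cell type was checked with miRNA markers. The 8 epithelial miRNAs summed to between 19532 and 26051 CPM, with miR-200c-3p, a repressor of the ZEB factors, at 9124 to 11370 CPM, and 7 of the 8 had more than 3 counts in every library. Among 4 fibroblast and smooth muscle miRNAs, miR-143-3p and miR-145-5p summed with the rest to between 177 and 675 CPM, while miR-214-3p and miR-199a-5p had no more than 2 counts. The neuronal miR-124-3p had at most 2 counts, whereas miR-9-5p was found at 2465 to 3554 CPM in all libraries. The muscle miRNA miR-1-3p had at most 6 counts. The epithelial sum was lowest in replicate 3 of each line, where the blood cell sum was highest. Not all of the 8 followed the sum. Within HCT-Oxa-c miR-429 was highest in replicate 3 (1761 CPM). The low miR-215-5p was highest in replicate 3 of HCT116 (8.02 CPM) and of HCT-Oxa-c (18.5 CPM).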

How the data were processed

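The authors deposited a raw count table of mature miRNAs, and a normalized signal, the deposited count divided by 1 factor per library, which was not used here. The submitters' processing notes name CASAVA 1.8, Bowtie 1.1.2, DESeq2 and GRCh38.p7. The counting rules were not found in the labels or the main text of the paper, whose supplementary methods were not used here. Small RNA libraries (NEXTflex v3, 16 PCR cycles per the labels) were sequenced on a MiSeq. The labels give an RPMI medium and the paper DMEM.

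Counts of 1198 miRNAs were filtered with filterByExpr (minimum count 10, minimum total 15), scaled by TMM and tested with edgeR 4.0.16 (R 4.3.3) in 1 quasi-likelihood fit to the 9 libraries, with the line as the only factor, a prior count of 0.125 and Benjamini-Hochberg adjustment over 367 miRNAs. DESeq2 1.42.0 was an alternative. It was fitted without that filter to all miRNAs with any count, so its totals called are not out of 367. The standard error is the log2 fold change divided by the root of F. Ratios used a pseudocount of 0.5 and, like locus totals, an exact permutation test that leaves out the replicate number. The text names all members, a list of other miRNAs of the clusters and, for the most abundant member of each locus, the 3 miRNAs with the most similar pattern. The members and lists were chosen with earlier results of these data known. The scripts were tested on simulated data.

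Replicate numbers come from the labels, which name no batch or date. Deviations from the line means correlated between lines at 0.41 to 0.51 for replicate 1 with 1, 0.56 to 0.65 for 2 with 2 and 0.74 to 0.76 for 3 with 3, but also at 0.42 to 0.61 for 1 with 2, and at -0.68 to -0.50 for 3 with 1 or 2. They set replicate 3 apart and do not show that numbers 1 and 2 are paired. The replicate number was kept as a block, beside a block of replicate 3 against the others. The biological coefficient of variation was 0.174 with the replicate block and 0.458 without. Which libraries shared a sequencing run was not analysed here. Replicates of a line varied more than sampling alone gives (chi-square per degree of freedom 12.0 to 484). Total counts ran from 856383 to 2207538. Sequences are from RefSeq and hairpin positions from GENCODE 29. Cell type markers are fixed lists of known miRNAs. Alternatives covered scaling, filter, tool, libraries, block and pseudocount. Those that vary the fit with the block (a library left out, replicates 1 and 2 only, replicate 3 against the others, or DESeq2) were chosen after seeing the data.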

Additional observations from a re-analysis of the deposited data

How the results depend on the processing

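The counts of members called were 0 in all 3 comparisons with DESeq2, TMM without the most abundant miRNA, total counts, RLE size factors, no filter beyond 1 count, at least 10 counts in every library (which drops the 3 lowest members), only the 6 libraries compared, and each library left out of the model of the lines. They moved with the replicate block, to 1 for HCT-Oxa-c against HCT116 (miR-100-5p) and 2 for HCT-Oxa-c against HCT-FU-c (miR-100-5p and miR-125b-5p), and with replicates 1 and 2 only, to 1 between the sublines, where 75 of all 367 tested miRNAs were called (miR-100-5p, edgeR adjusted p = 0.0105, range over all these settings 0.000185 to 0.326). Between HCT-FU-c and HCT116 the block left the count at 0, and it changed the call of no other member. With the settings named first, which called no member, 4 to 16 miRNAs were called in all for HCT-Oxa-c against HCT116. With these settings 0 or 1 was called for HCT-FU-c against HCT116, and 6 to 24 between the sublines. More settings, all with the block, were chosen after seeing the data. The replicate block with DESeq2 gave 1 member in HCT-Oxa-c against HCT116 and 1 between the sublines, both miR-100-5p, with 46 and 75 miRNAs called in all. A block of replicate 3 against replicates 1 and 2 gave 1 and 2 members, the same as with the replicate number, of 54 and 92 called in all. The replicate block on replicates 1 and 2 only gave 0 and 1, of 51 and 97. The block with each library left out gave 0 or 1 member against HCT116, where without HCT116 replicate 1 the member called was miR-125b-5p, and 1 or 2 between the sublines, of 24 to 60 and of 49 to 106 called in all. The cause of these changes was not tested. Total counts moved the median log2 fold change of all tested miRNAs by 0.17 for HCT-FU-c against HCT116 and by -0.19 between the sublines.

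Some members changed sign. In the model of the lines alone their log2 fold changes ran from -0.21 to 0.33. The lowest was that of miR-99b-3p between the sublines. The highest were those of let-7a-2-3p, at 0.28 and 0.33 in HCT-Oxa-c against HCT116 and against HCT-FU-c. For HCT-FU-c against HCT116 the log2 fold change of let-7a-2-3p was 0.19, of miR-99b-5p 0.070 and of miR-99b-3p 0.11 with total counts, of miR-125b-5p -0.021 with RLE size factors, of let-7a-2-3p 0.48 and of miR-99b-3p 0.0032 with replicates 1 and 2 only, and of miR-125b-5p -0.065 and -0.084 in the block without replicate 1 of HCT116 or of HCT-FU-c. Between the sublines miR-125a-5p was at 0.0071 with RLE, 0.021 with TMM without the most abundant miRNA and 0.0046 with DESeq2, and miR-125a-3p at -0.0025 with total counts. The chromosome 21 total against HCT116 in HCT-Oxa-c was 0.012 with RLE. Leaving out 1 library at a time gave these ranges of log2 values where a sign changed. In HCT-Oxa-c against HCT116 they were -0.17 to 0.70 for let-7a-2-3p, -0.40 to 0.37 for miR-99a-5p and -0.36 to 0.36 for the chromosome 21 total, for the arm ratios -0.070 to 0.26 (miR-99b) and -0.65 to 0.33 (miR-125a), and for miR-125b-5p to miR-125b-1-3p -0.37 to 0.44. In HCT-FU-c against HCT116 they were -0.26 to 0.42 for miR-125b-5p, -0.39 to 0.24 for let-7a-2-3p, -0.25 to 0.059 for miR-99b-5p, -0.29 to 0.12 for miR-99b-3p, -0.033 to 0.18 for the chromosome 19 total and -0.34 to 0.48 for the summed level of miR-125b-5p, for the same arm ratios -0.22 to 0.062 and -0.32 to 0.36, for miR-125b-5p to miR-125b-1-3p -0.099 to 0.81, and for miR-125b-5p to miR-100-5p -0.10 to 1.09. Between the sublines they were -0.36 to 0.034 for miR-125b-1-3p, -0.11 to 0.74 for let-7a-2-3p, -0.24 to 0.059 for miR-99b-5p, -0.52 to 0.022 for miR-99b-3p, -0.26 to 0.050 for miR-125a-5p, -0.057 to 0.58 for miR-125a-3p and -0.17 to 0.050 for the chromosome 19 total, for the miR-125a arm ratio -0.69 to 0.29, for miR-125b-5p to miR-125b-1-3p -0.75 to 0.16, and for miR-125a-5p to miR-99b-5p -0.17 to 0.28. The cause was not tested. The fold changes of miR-100-5p kept their sign in all settings. Other fold changes named in the text kept their sign but moved by more than 1.5 times with 1 library left out. The ranges were 0.15 to 0.73 and 0.22 to 0.76 for miR-125a-5p in HCT-Oxa-c and then HCT-FU-c against HCT116, 0.36 to 1.19 for miR-99a-5p in HCT-FU-c against HCT116, and -0.78 to -0.20 for miR-125b-5p and -1.02 to -0.49 for miR-99a-5p between the sublines. Mean log2 differences of some ratios likewise kept their sign but moved by more than 1.5 times. For miR-125b-5p to miR-100-5p this held for HCT-Oxa-c against each other line. For miR-125a-5p to miR-125b-5p it held in all 3 comparisons. For miR-125a-5p to miR-99b-5p it held for each subline against HCT116. Depth limits miR-99a-5p, miR-125a-3p and let-7a-2-3p, with 2 to 30 counts per library.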
